A study of Arabidopsis thaliana with 15 samples.

Results

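The tau and phi glutathione S-transferases of Arabidopsis thaliana were followed in seedlings given the strigolactone analogue GR244DO or its solvent. The members were the 28 tau genes GSTU1 to GSTU28 and the 12 phi genes GSTF2 to GSTF11, GSTF13 and GSTF14. They were found by locus identifier, and all 40 were present among the 32678 named genes of the expression table. RNA was sequenced from 15 libraries of whole seedlings, with 3 libraries in each of 5 groups. All groups were wild type of the Col ecotype, 10 days old, and had been balanced in liquid Murashige and Skoog medium for 2 h before treatment. The groups were solvent at 0 h, solvent at 2 h, solvent at 4 h, 5 µM GR244DO at 2 h and 5 µM GR244DO at 4 h. Strigolactones are plant hormones that restrain shoot branching, and GR244DO is a stereoisomer of the synthetic strigolactone GR24, so the comparison of each treated group with solvent of the same time asks which genes respond to a strigolactone agonist.

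Glutathione S-transferases join the tripeptide glutathione to electrophilic compounds such as herbicides, and some bind or carry small molecules without conjugating them. The tau and phi classes are the large plant classes of this enzyme family, and many of their genes lie in tandem arrays. Conjugates made in the cytosol are moved into the vacuole by ABC transporters of the ABCC type. Several members are known as rapidly inducible by xenobiotics, salicylic acid or oxidative stress, partly through TGA transcription factors that bind the core TGACG.

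Values were deposited as RPKM, which scale the reads of a gene by its length and by the library total, so levels can be set side by side between genes. Differences between groups were tested with limma on log2(RPKM + 1) in 1 fit over all genes and all 15 libraries, and a gene was called where the Benjamini-Hochberg adjusted p was under 0.05. A log2 difference below is on that scale, which understates the change of low genes. A gene was tested where it reached at least 1 RPKM in 3 or more libraries. This held for 19155 genes, among them 37 of the 40 members, 26 tau and 11 phi. Whole reads could be recovered from the values, and the libraries held 24.4 to 37.4 M reads (M, 1e6). Nothing in the labels ties the replicates to separate cultures or days, and the p-values therefore reflect the spread among the libraries, which may be technical. That spread was uneven. Solvent 4 h replicates 1 and 3, solvent 2 h replicates 2 and 3, and GR244DO 4 h replicates 1 and 2 differed by 1.13, 1.74 and 1.87 chi-square units per degree of freedom, where counting noise alone gives about 1. The other replicate pairs differed by 3.82 to 19.2 units. Where averaging each of those near-identical pairs as 1 sample ended a call, this is given with that comparison. In whole seedlings, fewer cells of a type and less RNA per cell cannot be told apart. As for tissue, 7 root markers summed to 80.5 to 113 RPKM per library and 6 shoot markers to 15495 to 32744 RPKM, while 4 seed storage markers summed to at most 2.08 RPKM. None of the 7 root markers was called between GR244DO and solvent at 2 h or 4 h, by limma or by limma-voom on the recovered reads, and 1 had an unadjusted p under 0.05 at 2 h. Of the 5 shoot markers tested, limma called 1 at 2 h, FAMA, a regulator of guard cell formation, which was higher, and none at 4 h, where 2 had an unadjusted p under 0.05. Limma-voom called 1 shoot marker at each time. Their part in the results was not tested.

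Among the tau genes, GSTU19 (AT1G78380), an enzyme with high activity toward model electrophiles and herbicides, had the highest level, 528 RPKM averaged over the 15 libraries. It supplied 38.3% of the summed tau RPKM. GSTU20 (AT1G78370), which interacts with the jasmonate-conjugating enzyme JAR1, followed with 210.0 RPKM. The ranges of these 2 genes over libraries, 429.6 to 671 and 163 to 283 RPKM, did not overlap. GSTU24 (AT1G17170), whose enzyme conjugates the explosive trinitrotoluene, averaged 102 RPKM and GSTU13 (AT1G27130) 102 RPKM. Their ranges, 70.6 to 123 and 81.9 to 127 RPKM, overlapped, so their order was within the spread. GSTU7 came next with 79.2 RPKM. These 5 genes together made up 74.0% of the tau sum, and 23 genes shared the rest.

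The most abundant members of all were phi genes. GSTF9 (AT2G30860) averaged 1602 RPKM and its tandem neighbour GSTF10 (AT2G30870) 1284 RPKM, 36.98% and 29.65% of the phi sum. The range of GSTF9, 1383 to 1760.0 RPKM, overlapped that of GSTF10, 1021 to 1585 RPKM. GSTF2 (AT4G02520), which binds indole-type compounds, averaged 676 RPKM and lay below GSTF10 in every library. GSTF8 (AT2G47730), a classic stress-inducible gene of this family, averaged 373 RPKM. GSTF3, a close relative of GSTF2, averaged only 2.47 RPKM. The tandem neighbours GSTF6 (AT1G02930), an enzyme of camalexin synthesis, and GSTF7 averaged 223 and 131 RPKM. Summed over members, phi RPKM was above tau RPKM in every library, 3845 to 4828 against 1197 to 1595.

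**Figure D1:**
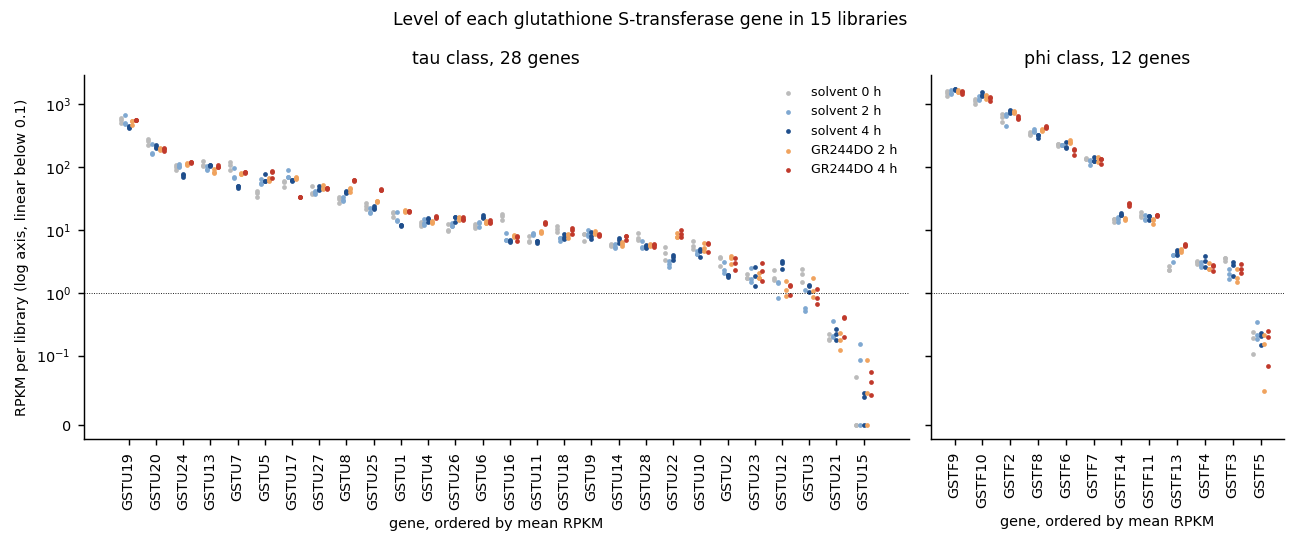
RPKM of each of the 40 genes in each of the 15 libraries, on a log axis that turns linear below 0.1, with 28 tau genes on the left and 12 phi genes on the right in order of mean level. Each point is 1 library, coloured by group, and the dotted line is 1 RPKM. The points of GSTF9 lie between 1383 and 1760 RPKM and those of GSTU19 between 430 and 671 RPKM, while GSTU15, GSTU21 and GSTF5 lie under the line in every library.

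The 3 members that were not tested were close to silent. GSTU15 averaged 0.0483 RPKM, with 0 to 5 reads per library. GSTU21 averaged 0.236 RPKM, with 2 to 10 reads, and GSTF5 averaged 0.186 RPKM, with 1 to 10 reads. These levels rest on too few reads to compare groups. Other low members were tested on few reads, such as GSTU3 with 11 to 57 reads per library and GSTU12 with 19 to 86.

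After 2 h of GR244DO, 3 of the 37 tested members were called higher than in solvent and none lower, against 1.3% of all genes called (0.887% higher, 0.412% lower). All 3 were tau genes, GSTU22, GSTU25 and GSTU8. None of the 11 tested phi genes was called by limma or limma-voom, and 2 of them were higher at an unadjusted p under 0.05. The 1 member lower at an unadjusted p under 0.05 was GSTU17. GSTU22 (AT1G78340) stood at 3.21, 2.86 and 2.54 RPKM in the solvent libraries and at 7.63, 7.74 and 8.90 RPKM in the GR244DO libraries, so every treated library was well above every solvent library. The mean level was 2.82 times that of solvent, and the log2 difference was 1.23 (SE 0.13, adjusted p = 0.000148). GSTU25 (AT1G17180), whose enzyme also conjugates trinitrotoluene, stood at 22.3, 18.8 and 19.3 RPKM in solvent and at 27.7, 29.1 and 28.8 RPKM with GR244DO, again without overlap. The log2 difference of GSTU25 was 0.49 (SE 0.08, adjusted p = 0.00386). GSTU8 (AT3G09270) stood at 34.1, 29.8 and 29.4 RPKM in solvent and at 44.2, 40.1 and 46.04 RPKM with GR244DO, and the lowest treated library lay above the highest solvent library. For GSTU8 the log2 difference was 0.47 (SE 0.08, adjusted p = 0.00449). With the near-identical libraries averaged, the call of GSTU22 held, while GSTU25 (adjusted p = 0.0662) and GSTU8 (0.0819) passed the threshold no longer.

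By the median, the members at 2 h lay close to the bulk of the table. Over the 37 tested members the median log2 difference was 0.08, and over all genes tested it was 0.06. By class the medians were 0.08 for tau and 0.05 for phi. Treated and solvent libraries did not overlap for 11 members that were higher and for 1, GSTU17, that was lower. The groups did not overlap for 26.2% of all genes tested (19.3% higher, 6.89% lower), so a separation of this kind was common in the table. At 2 h the summed root markers were 80.5 to 94.6 RPKM in solvent and 98.0 to 98.8 RPKM with GR244DO, and the summed shoot markers were 21542 to 22447 and 19034 to 20447 RPKM. Neither set of libraries overlapped, and the part of this shift in the members' values was not tested. An unadjusted p under 0.05 was reached by 11 of the 37 tested members, beside 3510 of all 19155 genes tested. Among the 11 was GSTU1, with 19.1, 14.1 and 14.6 RPKM in solvent and 20.7, 20.01 and 19.3 RPKM with GR244DO. Its log2 difference was 0.32 (SE 0.09, adjusted p = 0.0983). With the replicate number as a block, since same-numbered libraries deviated together at 2 h, GSTU1 was called at an adjusted p of 0.0312, and without solvent 2 h replicate 1 at 0.0057. In the blocked fit of the 2 h groups alone it was not called.

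After 4 h, 14 of the 37 tested members were called, 11 higher and 3 lower, against 8.93% of all genes. By direction, 4.69% of all genes were called higher and 4.23% lower. In the tau class 8 were higher and 2 lower of 26 tested, and in the phi class 3 were higher and 1 lower of 11. The median log2 difference was 0.14 over the members, 0.15 over tau, -0.04 over phi and 0.02 over all genes tested. Libraries of the 2 groups did not overlap for 13 members that were higher and 7 that were lower, beside 33.5% of all genes (17.5% higher, 16% lower). Of the 14 calls, 11 held under each alternative that tested the gene, and the other 3, GSTU19, GSTF6 and GSTF13, are given with their limits below. Among the 11, GSTU12 was too low to be tested under the filter at 5 RPKM, and its call held under the other 26 alternatives.

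**Figure D2:**
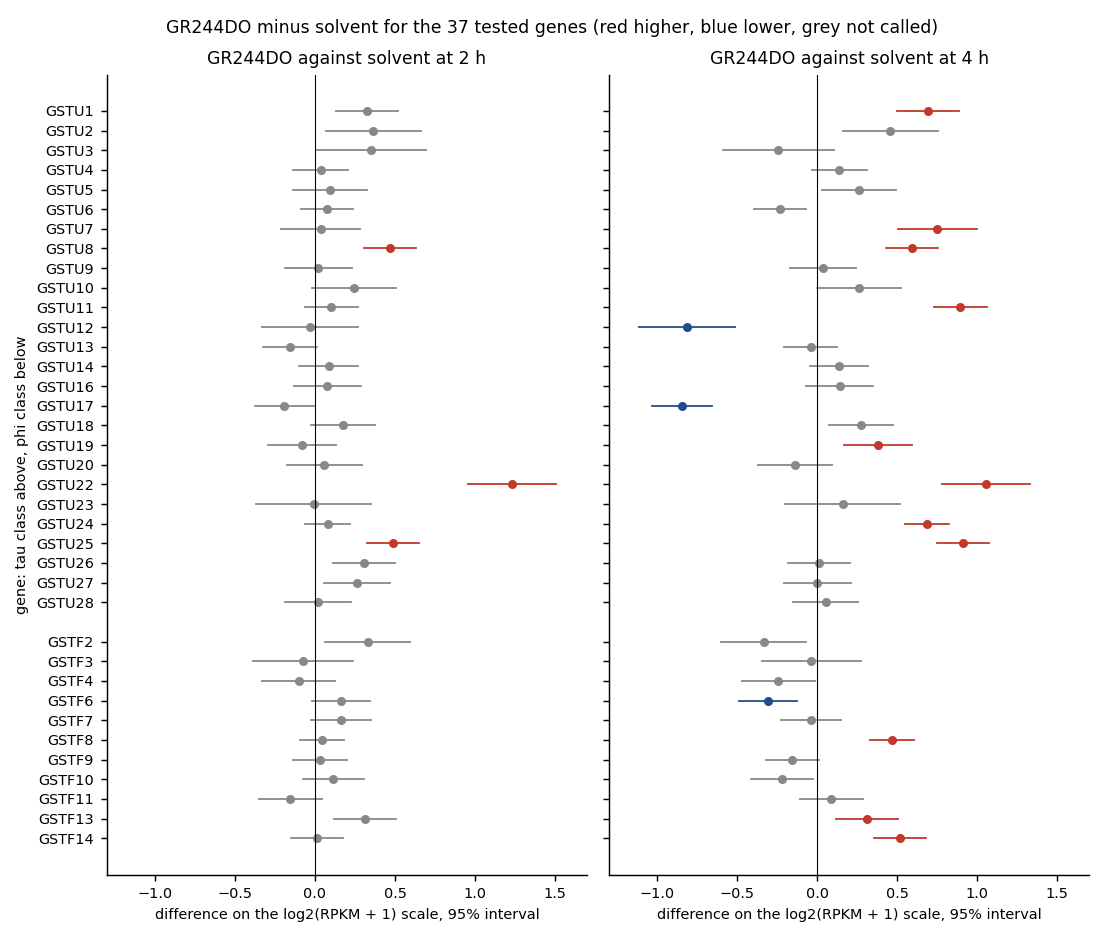
Difference between GR244DO and solvent on the log2(RPKM + 1) scale for the 37 tested genes at 2 h (left) and 4 h (right), with 95% confidence intervals from the limma fit. Each row is 1 gene, tau above and phi below, in red where called higher, blue where called lower and grey where not called. At 2 h the coloured rows are GSTU8, GSTU22 and GSTU25, and at 4 h there are 11 red and 3 blue rows.

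GSTU22 again had the highest log2 difference of the members at 4 h. It stood at 4.01, 3.73 and 3.35 RPKM in solvent and at 8.52, 10.1 and 7.75 RPKM with GR244DO, with no overlap. The mean was 2.38 times that of solvent, a log2 difference of 1.05 (SE 0.13, adjusted p = 5.61e-05). GSTU25 had 21.3, 24.5 and 22.7 RPKM in solvent and 43.3, 45.2 and 42.7 RPKM with GR244DO. Its treated libraries were thus close together and all far above solvent, at a log2 difference of 0.91 (SE 0.08, adjusted p = 1.6e-06). GSTU11 (AT1G69930) had 6.70, 6.71 and 6.17 RPKM in solvent and 13.5, 12.96 and 12.4 RPKM with GR244DO. The log2 difference of GSTU11 was 0.89 (SE 0.08, adjusted p = 2.18e-06), and the mean was 1.99 times that of solvent. GSTU7 (AT2G29420), a salicylic acid-responsive gene, had 49.6, 50.7 and 46.9 RPKM in solvent and 80.8, 84.9 and 83.98 RPKM with GR244DO. Again all treated libraries were higher, with a log2 difference of 0.75 (SE 0.12, adjusted p = 0.000541).

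GSTU1 (AT2G29490) had 11.998, 11.9 and 11.7 RPKM in solvent at 4 h and 19.8, 20.2 and 19.6 RPKM with GR244DO. Both groups were tight and apart, with a log2 difference of 0.69 (SE 0.09, adjusted p = 0.000121). GSTU24 had 75.3, 78.7 and 70.6 RPKM in solvent and 123, 121 and 119 RPKM with GR244DO. The lowest treated library was far above the highest solvent library, and the log2 difference was 0.69 (SE 0.07, adjusted p = 5.23e-06). GSTU8 had 40.9, 41.8 and 38.7 RPKM in solvent and 61.6, 60.7 and 62.4 RPKM with GR244DO, a log2 difference of 0.59 (SE 0.08, adjusted p = 9.25e-05) without overlap. GSTU19, the most abundant tau gene, had 433, 455 and 429.6 RPKM in solvent and 576, 565 and 571 RPKM with GR244DO. Every treated library was above every solvent library, but the relative difference was smaller, at 0.38 (SE 0.10, adjusted p = 0.0259). The call of GSTU19 ended under 8 of 27 alternatives, which included leaving out any GR244DO 4 h library or solvent 4 h replicate 1 or 3 (adjusted p = 0.0534 to 0.0969) and averaging the near-identical pairs (0.218).

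GSTU17 and GSTU12 were the tau genes called lower with GR244DO than in solvent at 4 h. GSTU17 (AT1G10370), known as an ERD gene induced by dehydration and tied to abscisic acid responses, had 59.8, 62.3 and 63.4 RPKM in solvent and 34.1, 33.99 and 33.99 RPKM with GR244DO. The 3 treated libraries were nearly equal, and the solvent mean was 1.82 times theirs, with a log2 difference of -0.84 (SE 0.09, adjusted p = 1.2e-05). GSTU12 (AT1G69920) had 2.41, 3.21 and 2.94 RPKM in solvent and 1.30, 1.34 and 0.931 RPKM with GR244DO. GSTU12 was low in every library, and its groups did not overlap, with a log2 difference of -0.81 (SE 0.14, adjusted p = 0.00144). Its solvent mean was 2.40 times the treated mean.

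Among the phi genes, GSTF8 and GSTF14 were most clearly higher with GR244DO. GSTF8 had 327, 297 and 324 RPKM in solvent at 4 h and 436, 416 and 461 RPKM with GR244DO, with no overlap. The log2 difference of GSTF8 was 0.47 (SE 0.06, adjusted p = 0.00019). GSTF14 (AT1G49860) had 17.04, 18.5 and 17.1 RPKM in solvent and 26.999, 25.6 and 23.98 RPKM with GR244DO. For GSTF14 all treated libraries lay above solvent, with a log2 difference of 0.52 (SE 0.08, adjusted p = 0.000376). GSTF13 (AT3G62760) had 4.81, 4.06 and 4.39 RPKM in solvent and 5.69, 5.52 and 5.91 RPKM with GR244DO. All treated libraries were above solvent but by a small step, with a log2 difference of 0.31 (SE 0.09, adjusted p = 0.0459). Its call ended under 17 of 27 alternatives, among them the averaged pairs (adjusted p = 0.209). It also ended without any single library of the 4 h groups or of GR244DO 2 h, solvent 0 h replicate 3 or solvent 2 h replicate 2 (0.0525 to 0.129).

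GSTF6 was the phi gene called lower. It had 204, 256 and 207 RPKM in solvent and 187, 192 and 159 RPKM with GR244DO, so solvent replicate 2 stood above the other solvent libraries, which were close to the highest treated library. The log2 difference was -0.31 (SE 0.09, adjusted p = 0.0337), and the call ended under 8 of 27 alternatives, such as without solvent 4 h replicate 2 (adjusted p = 0.119), without GR244DO 4 h replicate 1 (0.0662) or 3 (0.115), with quantile normalization (0.125) or with averaged pairs (0.0849). GSTF9 and GSTF10, the most abundant members, were not called, with log2 differences of -0.15 and -0.22 (adjusted p = 0.244 and 0.146). GSTF2 was not called either, with 797, 739 and 806 RPKM in solvent and 599, 595 and 663 RPKM with GR244DO (log2 difference -0.33, adjusted p = 0.113), so its groups did not overlap. It was called in fits of the compared groups alone (0.00933), without solvent 2 h replicate 1 (0.0172), and with the replicate block over all groups (0.0458) or the compared groups (0.00118). In sum, phi RPKM at 4 h was 4698 ± 115 in solvent and 4239 ± 142 with GR244DO (SD, n = 3), and tau RPKM was 1237 ± 54.9 and 1477 ± 23.1. Treated libraries were thus all lower for the phi sum and all higher for the tau sum at 4 h. These sums rest largely on a few abundant genes. Averaged over all libraries, GSTF9, GSTF10 and GSTF2, none of them called, made up 82.2% of the phi sum, and GSTU19 38.3% of the tau sum. By calls, 3 phi genes were higher at 4 h and 1 was lower. At 2 h the phi sum lay the other way, at 4179 ± 115 RPKM in solvent and 4510.2 ± 166 RPKM with GR244DO with every treated library higher, and the tau sums overlapped.

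The 23 tested members not called at 4 h were GSTU2 to GSTU6, GSTU9, GSTU10, GSTU13, GSTU14, GSTU16, GSTU18, GSTU20, GSTU23, GSTU26 to GSTU28, GSTF2 to GSTF4, GSTF7 and GSTF9 to GSTF11. Their log2 differences lay between -0.33 for GSTF2 and 0.46 for GSTU2. At 4 h the summed root markers were 100.7 to 112 RPKM in solvent and 99.2 to 106 RPKM with GR244DO, and the summed shoot markers were 15495 to 17603 and 16629 to 19005 RPKM. Both sums overlapped between the groups.

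For several of the members called at 4 h, the solvent level itself changed between 2 h and 4 h. The comparisons with GR244DO use the solvent libraries that also enter the solvent comparisons, so these values are given side by side and are not independent. GSTU7 fell in solvent from 78.7 ± 17.4 RPKM at 2 h to 49.1 ± 1.93 RPKM at 4 h (SD, n = 3), a log2 difference of -0.65 (adjusted p = 0.000878), while the treated means were 79.4 ± 0.857 and 83.2 ± 2.15 RPKM. GSTU24 fell in solvent from 105 ± 6.19 to 74.9 ± 4.09 RPKM (log2 difference -0.48, adjusted p = 8.36e-05), and the treated means were 111 ± 3.93 and 121 ± 1.91 RPKM. GSTU1 fell in solvent from 15.9 ± 2.76 to 11.9 ± 0.149 RPKM (log2 difference -0.38, adjusted p = 0.00753), with treated means of 20.02 ± 0.699 and 19.8 ± 0.314 RPKM. For these 3 genes every treated library at 4 h was thus above the solvent mean of 2 h. For GSTU24 and GSTU1 they were also above every solvent library of 0 h. GSTU7 differed, with 119.7, 108 and 89.3 RPKM in solvent at 0 h, above every treated library of 4 h, and it had already fallen in solvent from 0 h to 2 h (log2 difference -0.43, adjusted p = 0.011), a call that ended without solvent 0 h replicate 1 or solvent 2 h replicate 2 or 3 (0.058 to 0.0649) or with averaged pairs (0.0941). GSTU19 and GSTF8 fell in solvent as well, with log2 differences of -0.32 (adjusted p = 0.0321) and -0.26 (adjusted p = 0.00997). GSTU19 averaged 560, 554 and 439 RPKM in solvent at 0 h, 2 h and 4 h, and 519 and 571 RPKM with GR244DO. Its treated libraries of 4 h lay within the solvent range of 2 h, 483 to 671 RPKM. For GSTF8 every treated library of 4 h was above every solvent library of any time. The solvent call of GSTU19 ended without solvent 2 h replicate 1 or solvent 4 h replicate 1 or 3 (0.094 to 0.122). Averaged pairs ended the solvent calls of GSTU19 (0.0903), GSTF8 (0.0523), GSTU11 (0.0527) and GSTU17 (0.072), and that of GSTU17 also ended without replicate 1 of solvent 2 h (0.0841) or of solvent 4 h (0.0793). GSTU11 fell in solvent from 8.66 ± 0.349 to 6.53 ± 0.307 RPKM (log2 difference -0.36, adjusted p = 0.00367), while its treated mean was 9.36 ± 0.461 RPKM at 2 h and 12.98 ± 0.554 RPKM at 4 h.

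Other members stood above every solvent group. GSTU25 had solvent means of 24.1 ± 2.37, 20.1 ± 1.86 and 22.8 ± 1.61 RPKM at 0 h, 2 h and 4 h, and treated means of 28.5 ± 0.760 and 43.7 ± 1.30 RPKM. GSTU22 had solvent means of 4.36 ± 1.09, 2.87 ± 0.335 and 3.70 ± 0.330 RPKM, and treated means of 8.09 ± 0.702 and 8.78 ± 1.17 RPKM. GSTU8 and GSTF14 at 4 h were likewise higher with GR244DO than in any solvent library. The 2 tau genes that were lower differed from each other. GSTU12 rose in solvent from 1.23 ± 0.354 RPKM at 2 h to 2.86 ± 0.410 RPKM at 4 h (log2 difference 0.80, adjusted p = 0.000784), while its treated means were 1.18 ± 0.313 and 1.19 ± 0.226 RPKM. GSTU17 fell in solvent from 77.2 ± 10.9 to 61.8 ± 1.84 RPKM (log2 difference -0.31, adjusted p = 0.0205), and the treated mean at 4 h, 34.03 ± 0.0722 RPKM, was below every solvent library of any time.

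**Figure D3:**
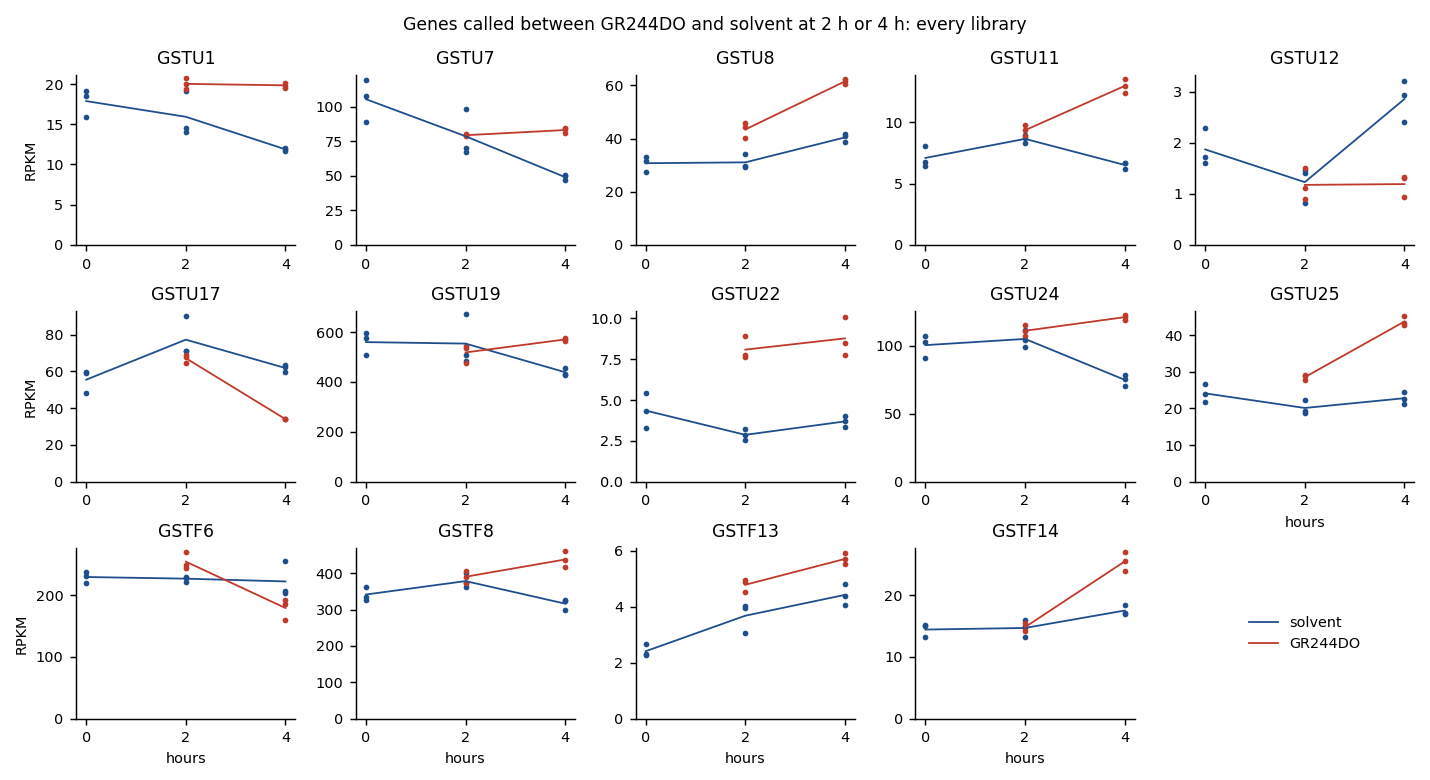
RPKM against hours for the 14 genes called between GR244DO and solvent at 2 h or 4 h, 1 panel per gene, with solvent in blue and GR244DO in red. Points are libraries and lines join group means, and each vertical axis starts at 0 RPKM. The red line of GSTU17 drops to 34.0 RPKM at 4 h, and that of GSTU25 climbs to 43.7 RPKM, while in the panels of GSTU7 and GSTU24 it is the blue line that drops.

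Whether the response differed between the times was tested directly as the difference of the 2 responses, 4 h minus 2 h, and 6 of 37 members were called, beside 1.72% of all genes (0.961% positive, 0.757% negative). The difference was positive for 5 members, GSTU11, GSTU7, GSTU24, GSTF14 and GSTF8, and negative for GSTU17. At 2 h GSTU11 had 8.72, 8.97 and 8.28 RPKM in solvent and 8.88, 9.41 and 9.80 RPKM with GR244DO, and the groups overlapped. Its response was 0.10 at 2 h and 0.89 at 4 h, and the difference, the largest of those called, was 0.79 (SE 0.11, adjusted p = 0.0012). GSTU24 at 2 h had 111, 104 and 99.2 RPKM in solvent and 107, 115 and 111 RPKM with GR244DO, again overlapping. Its response went from 0.08 to 0.69, a difference of 0.61 (SE 0.09, adjusted p = 0.00268). GSTU17 at 2 h had 89.8, 70.9 and 70.97 RPKM in solvent and 68.9, 67.96 and 64.6 RPKM with GR244DO, so it was already lower without overlap but not called. Its response went from -0.19 to -0.84, a difference of -0.65 (SE 0.12, adjusted p = 0.0112). With the near-identical pairs averaged, GSTU11 alone kept its call, and the adjusted p was 0.0629 for GSTU24 and 0.182 for GSTU17.

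The other 3 calls of that test ended under more of the alternatives. At 2 h GSTU7 had 98.7, 70.5 and 66.95 RPKM in solvent and 80.3, 78.6 and 79.4 RPKM with GR244DO, so the treated libraries lay within the solvent range. The difference of responses of GSTU7 was 0.72 (SE 0.16, adjusted p = 0.0358). GSTF8 at 2 h had 400.4, 361 and 373 RPKM in solvent and 407, 373 and 390.5 RPKM with GR244DO, and its difference was 0.42 (SE 0.09, adjusted p = 0.0254). GSTF14 at 2 h had 13.2, 14.99 and 15.96 RPKM in solvent and 15.5, 14.3 and 14.8 RPKM with GR244DO, and its difference was 0.50 (SE 0.11, adjusted p = 0.0254). For both phi genes the groups overlapped at 2 h. The calls of GSTU7, GSTF8 and GSTF14 ended under 12, 9 and 9 of 27 alternatives. All 3 calls ended without solvent 4 h replicate 3, GR244DO 2 h replicate 2 or 3, or GR244DO 4 h replicate 1 (adjusted p = 0.0534 to 0.103). That of GSTU7 ended without any other single treated or 4 h solvent library, that of GSTF8 also without solvent 4 h replicate 2 or GR244DO 4 h replicate 3, and that of GSTF14 also without solvent 2 h replicate 2 or 3, solvent 4 h replicate 1 or GR244DO 4 h replicate 2 (0.0547 to 0.0895). With averaged pairs the adjusted p was 0.152, 0.151 and 0.39 for GSTU7, GSTF8 and GSTF14. For GSTU22, called at both times, the difference of responses was -0.18 (adjusted p = 0.839), with a 95% interval from -0.56 to 0.21. Just outside the threshold were GSTU12 at -0.78 (adjusted p = 0.0631), GSTF6 at -0.47 (adjusted p = 0.0655) and GSTU25 at 0.43 (adjusted p = 0.0669). Of the 27 alternatives, 8 called GSTU25 (0.00768 to 0.0492) and 3 called GSTF6 (0.00963 to 0.048), while none of the 26 that tested GSTU12 called it. GSTF2, at -0.66 and not called in the main fit, was also called by 3 (0.0258 to 0.0396). At 2 h GSTF2 had 461, 664 and 697 RPKM in solvent and 720, 754 and 781 RPKM with GR244DO. It was thus higher at 2 h and lower at 4 h, without overlap at either time.

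In solvent alone, 15 of 37 members were called between 0 h and 2 h, 4 higher and 11 lower, beside 28.7% of all genes (19% higher, 9.66% lower). The groups did not overlap for 13 members and for 36.5% of all genes (24.1% higher, 12.4% lower). GSTU16 had 17.8, 16.5 and 14.4 RPKM at 0 h and 8.97, 6.83 and 6.91 RPKM at 2 h. On the log2(RPKM + 1) scale it fell by the widest margin of the members, at -1.01 (SE 0.10, adjusted p = 1.2e-06). GSTU5 had 38.2, 41.7 and 33.7 RPKM at 0 h and 64.7, 56.98 and 54.6 RPKM at 2 h and rose without overlap, at 0.62 (SE 0.11, adjusted p = 0.000479). GSTU18 had 10.2, 9.38 and 11.8 RPKM at 0 h and 6.66, 7.36 and 7.34 RPKM at 2 h and fell (log2 difference -0.49, adjusted p = 0.000932). Its tandem neighbour GSTU17 had 58.9, 59.5 and 48.1 RPKM at 0 h and 89.8, 70.9 and 70.97 RPKM at 2 h and rose (log2 difference 0.47, adjusted p = 0.000853), so the pair moved apart. GSTU3 had 2.35, 1.48 and 1.99 RPKM at 0 h and 0.517, 1.12 and 0.570 RPKM at 2 h (log2 difference -0.77, adjusted p = 0.00212). GSTU20 had 283, 266 and 227 RPKM at 0 h and 233, 171 and 163 RPKM at 2 h (log2 difference -0.46, adjusted p = 0.00483). Both fell, GSTU3 without overlap and GSTU20 with overlap. GSTF3 had 3.62, 3.18 and 3.64 RPKM at 0 h and 1.63, 2.36 and 2.004 RPKM at 2 h (log2 difference -0.58, adjusted p = 0.00676), and GSTU28 had 7.35, 8.85 and 6.83 RPKM and 6.68, 5.34 and 5.16 RPKM (log2 difference -0.37, adjusted p = 0.00901). These too fell without overlap. GSTF13 had 2.66, 2.29 and 2.27 RPKM at 0 h and 3.05, 3.97 and 4.01 RPKM at 2 h (log2 difference 0.45, adjusted p = 0.0015), and GSTU11 had 8.08, 6.48 and 6.74 RPKM and 8.72, 8.97 and 8.28 RPKM (log2 difference 0.26, adjusted p = 0.0205). Both rose, and their groups did not overlap. Among these, the call of GSTU11 ended without solvent 0 h replicate 2 or 3 or solvent 2 h replicate 2 (adjusted p = 0.0718 to 0.0784). The other 5 members that fell were GSTU7, GSTU10, GSTU13, GSTU22 and GSTU25, with log2 differences from -0.45 to -0.23. Without 1 library the call of GSTU22 ended for solvent 0 h replicate 2 or solvent 2 h replicate 3 (0.0676 to 0.0696), and that of GSTU25 for solvent 0 h replicate 1 or solvent 2 h replicate 2 or 3 (0.0873 to 0.116). The call of GSTU13 ended without any of the libraries given for GSTU25, solvent 4 h replicate 1 or 3, or GR244DO 4 h replicate 1 (0.0507 to 0.195). The call of GSTU10 ended without solvent 0 h replicate 1 or 2, any solvent 2 h library, solvent 4 h replicate 3, GR244DO 2 h replicate 3 or GR244DO 4 h replicate 2 (0.0508 to 0.155). Averaging the near-identical pairs ended 8 of the 15 calls, those of GSTU20 (0.0516), GSTU28 (0.0699), GSTU11 (0.0771), GSTU22 (0.0661), GSTU7 (0.0941), GSTU10 (0.0968), GSTU25 (0.136) and GSTU13 (0.197).

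Between 2 h and 4 h in solvent, 14 of 37 members were called, 7 in each direction, beside 21.3% of all genes (11.8% higher, 9.5% lower). The groups did not overlap for 19 members and for 39.2% of all genes (20% higher, 19.2% lower). The members that fell with the smallest adjusted p were GSTU24, GSTU7, GSTU11, GSTU1, GSTF8 and GSTU17, all of which were also called between GR244DO and solvent at 4 h. Those that rose with the smallest adjusted p were GSTU12, GSTU8, GSTU6, GSTU26, GSTF14 and GSTU14. GSTU12 had 0.822, 1.41 and 1.46 RPKM at 2 h and 2.41, 3.21 and 2.94 RPKM at 4 h (log2 difference 0.80, adjusted p = 0.000784), and GSTU8 (log2 difference 0.37, adjusted p = 0.00252) moved between the library values given above. GSTU6 had 13.4, 13.2 and 11.2 RPKM at 2 h and 15.9, 17.1 and 15.8 RPKM at 4 h (log2 difference 0.35, adjusted p = 0.00443). In each of these 3 genes every 4 h library was above every 2 h library. GSTU26 had 13.1, 11.7 and 11.7 RPKM at 2 h and 15.9, 16.004 and 13.5 RPKM at 4 h (log2 difference 0.29, adjusted p = 0.0312). GSTF14 had a log2 difference of 0.24 (adjusted p = 0.0346) between the solvent values given above. GSTU14 had 5.33, 5.25 and 6.05 RPKM at 2 h and 7.05, 7.51 and 6.13 RPKM at 4 h (log2 difference 0.27, adjusted p = 0.0359). These 3 rose by less, and each of their calls ended without solvent 2 h replicate 2 or solvent 4 h replicate 1 or 2 (adjusted p = 0.0655 to 0.122) and with averaged pairs (0.0845 to 0.146). Averaged pairs also ended the call of GSTU8 (0.051) and that of GSTF2, the other member that rose (log2 difference 0.38, adjusted p = 0.0392, with averaged pairs 0.0983). The call of GSTF2 ended also without solvent 2 h replicate 1, solvent 4 h replicate 1 or 3, GR244DO 2 h replicate 3 or GR244DO 4 h replicate 1 (0.0508 to 0.158). Without solvent 2 h replicate 1 the calls of GSTU14 (0.0904) and GSTF14 (0.133) ended, without solvent 2 h replicate 3 that of GSTU26 (0.0938), and without solvent 4 h replicate 3 that of GSTF14 (0.067). The solvent course of the summed shoot markers moved over the same times, from 27026 to 32744 summed RPKM at 0 h to 21542 to 22447 at 2 h and 15495 to 17603 at 4 h. Of the 5 tested, 1 was called higher and 3 lower from 0 h to 2 h, and 1 higher and 2 lower from 2 h to 4 h. Of 7 root markers, 2 were called lower from 0 h to 2 h and 3 higher from 2 h to 4 h. These stood beside 28.7% and 21.3% of all genes. The part of the markers in the solvent values of the members was not tested.

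Of the 40 members, 29 lie in tandem clusters, and neighbours did not always have the same call. Positions are those of the RefSeq annotation of TAIR10.1. The cluster GSTU24 to GSTU26 (chr1:5869543-5876620, plus strand) had GSTU24 and GSTU25 higher at 4 h, while GSTU26 had 15.2 ± 1.43 RPKM in solvent and 15.3 ± 0.722 RPKM with GR244DO (log2 difference 0.01, adjusted p = 0.95). In the pair GSTU11 and GSTU12 (chr1:26334250-26338818, minus strand), separated by 1850 bases, GSTU11 was higher than solvent at 4 h and GSTU12 lower. The mean of GSTU12 with GR244DO was 1.18 RPKM at 2 h and 1.19 RPKM at 4 h, while its solvent mean went from 1.23 to 2.86 RPKM. In the pair GSTU17 and GSTU18 (chr1:3395551-3398358, minus strand), GSTU17 was lower than solvent at 4 h. GSTU18 had 7.90 ± 0.762 RPKM in solvent and 9.76 ± 1.02 RPKM with GR244DO (log2 difference 0.27, adjusted p = 0.0837). The annotated genes of that pair overlap by 71 bases on the same strand, so reads from the overlap cannot be assigned to either with certainty.

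The largest cluster, GSTU1 to GSTU7 (chr2:12617936-12632538, minus strand), had GSTU1 and GSTU7 higher at 4 h and 5 members not called. These 2 genes are the outer ones of the array. GSTU2, 19 bases from GSTU1, had 1.93, 1.90 and 1.79 RPKM in solvent and 3.63, 3.03 and 2.28 RPKM with GR244DO, just outside the threshold (log2 difference 0.46, adjusted p = 0.0524). It was called under 8 alternatives (0.00907 to 0.0461) and was too low to be tested under the filter at 5 RPKM. GSTU6, 730 bases from GSTU7, had a difference of the other sign, -0.23 (adjusted p = 0.0734). In the cluster GSTU19 to GSTU23 (chr1:29467412-29488007, minus strand), 4 of 5 genes were tested, and GSTU19 and GSTU22 were higher than solvent at 4 h. GSTU20 was at -0.14 (adjusted p = 0.476) and GSTU23 at 0.16 (adjusted p = 0.604). In the phi cluster GSTF4 to GSTF7 (chr1:658578-666471, minus strand) GSTF6 alone was called, and GSTF7 was at -0.04 (adjusted p = 0.839). In the phi pair GSTF9 and GSTF10 (chr2:13138882-13142676, plus strand), neither was called. The pair GSTU13 and GSTU14 had no call at 2 h or 4 h, and GSTU16, the tested gene beside GSTU15, had none.

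**Figure D4:**
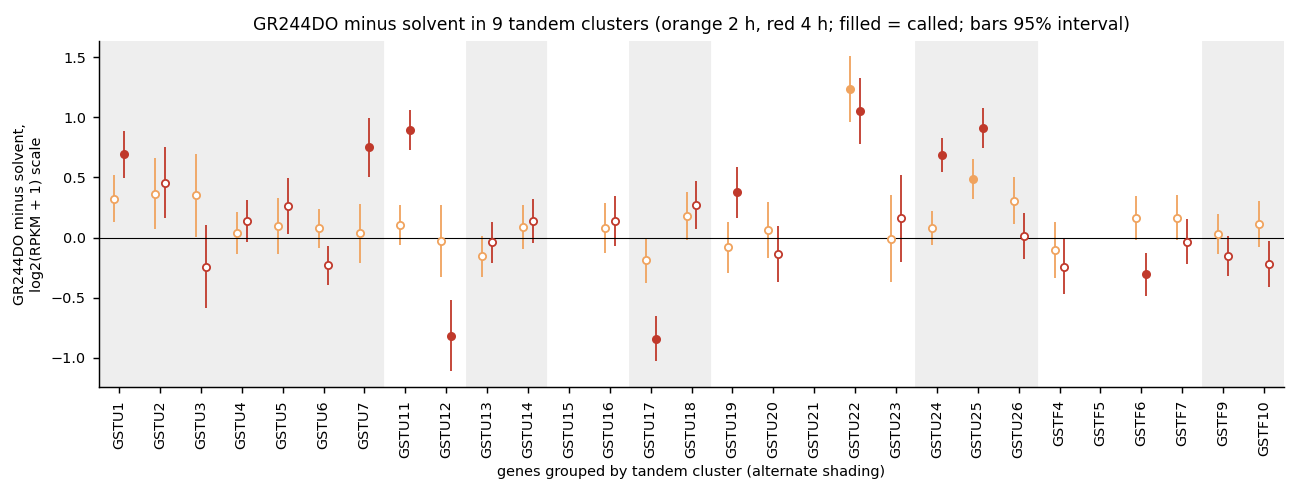
Difference between GR244DO and solvent on the log2(RPKM + 1) scale for the genes of 9 tandem clusters, with alternate shading per cluster, orange for 2 h and red for 4 h, and filled points for called genes. Bars are 95% confidence intervals from the limma fit, and GSTU15, GSTU21 and GSTF5 have no point because they were not tested. Filled red points lie on both sides of 0 within the pair GSTU11 and GSTU12.

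The 250 bases upstream of each annotated gene start were read from RefSeq TAIR10.1 and searched on both strands for TGACG, the core bound by TGA factors, and for TTGAC, the core bound by WRKY factors. TGACG was found in the windows of 14 of the 40 members and of 18.6% of 27443 protein-coding genes. It was present in 7 of the 11 members that were higher at 4 h, in none of the 3 that were lower and in 7 of the 23 that were tested and not called. Over all tested genes with a window the share was 19.2%, and over those called higher at 4 h it was 22.6%. TTGAC was found in 23 of the 40 members and in 44.9% of all genes. It was present in 7 of the 11 members that were higher at 4 h, in all 3 that were lower and in 12 of the 23 not called. Over all tested genes with a window its share was 45.1%, and over those called higher at 4 h it was 47.8%. The 7 members with TGACG that were higher at 4 h were GSTU1, GSTU7, GSTU11, GSTU22, GSTU24, GSTU25 and GSTF8. A match describes the letters in the window only. The window of GSTU18 lies within the gene GSTU17, and most of the window of GSTU2 lies within GSTU1. Neither window holds TGACG, and both genes count among the 23 not called. GSTU8, GSTU19, GSTF13 and GSTF14 were also higher at 4 h and have no TGACG in their windows. The windows below show 5 of the members with TGACG that were higher, and GSTU17, which was lower and has no TGACG. They were picked as examples, and members without TGACG that were higher are not shown. Each is written 5′ to 3′ on the strand of the gene, ends at the base before the annotated start, and has TGACG or its reverse complement CGTCA in capitals.
GSTU22, minus strand, chr1:29474004-29474253: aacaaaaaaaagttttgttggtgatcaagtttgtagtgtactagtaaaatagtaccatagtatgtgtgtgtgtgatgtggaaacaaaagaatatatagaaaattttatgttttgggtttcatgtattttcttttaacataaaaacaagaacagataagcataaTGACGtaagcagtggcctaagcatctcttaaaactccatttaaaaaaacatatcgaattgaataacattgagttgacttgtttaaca
GSTU24, plus strand, chr1:5869293-5869542: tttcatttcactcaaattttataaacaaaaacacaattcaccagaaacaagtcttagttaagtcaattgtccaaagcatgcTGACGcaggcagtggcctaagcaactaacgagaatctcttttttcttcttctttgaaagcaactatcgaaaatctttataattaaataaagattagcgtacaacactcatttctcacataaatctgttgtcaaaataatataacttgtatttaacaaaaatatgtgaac
GSTU25, plus strand, chr1:5871774-5872023: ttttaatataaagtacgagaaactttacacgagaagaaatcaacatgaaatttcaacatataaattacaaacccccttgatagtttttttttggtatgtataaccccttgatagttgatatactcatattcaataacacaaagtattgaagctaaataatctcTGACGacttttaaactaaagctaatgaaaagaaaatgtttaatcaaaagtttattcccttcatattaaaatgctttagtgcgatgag
GSTU7, minus strand, chr2:12618900-12619149: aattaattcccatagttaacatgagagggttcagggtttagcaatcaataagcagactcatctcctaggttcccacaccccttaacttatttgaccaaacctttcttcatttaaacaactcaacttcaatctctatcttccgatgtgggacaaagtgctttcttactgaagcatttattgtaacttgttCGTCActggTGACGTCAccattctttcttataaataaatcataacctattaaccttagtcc
GSTU1, minus strand, chr2:12632539-12632788: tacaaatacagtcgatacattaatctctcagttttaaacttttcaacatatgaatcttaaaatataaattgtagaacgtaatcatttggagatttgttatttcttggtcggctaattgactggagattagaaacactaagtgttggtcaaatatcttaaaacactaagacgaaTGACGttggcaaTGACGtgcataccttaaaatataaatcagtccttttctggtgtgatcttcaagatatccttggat
GSTU17, minus strand, chr1:3398359-3398608: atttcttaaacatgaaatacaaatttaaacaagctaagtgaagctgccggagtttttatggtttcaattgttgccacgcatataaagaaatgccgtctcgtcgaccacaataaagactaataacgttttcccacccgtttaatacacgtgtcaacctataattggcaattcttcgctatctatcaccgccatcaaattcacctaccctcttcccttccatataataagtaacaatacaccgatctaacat
GSTU7 holds 3 matches, of which 2 overlap on opposite strands, GSTU1 holds 2, and GSTU22, GSTU24 and GSTU25 hold 1 each. The windows of GSTU22 and GSTU24, which belong to different clusters, share the 15-base run gcagtggcctaagca, which follows the TGACG match in both. That run occurred in 2 windows of all genes, these 2. It was singled out after the sequences were compared.

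Some values rest on reads that could come from another gene. Of the 40 members, GSTF6 and GSTF7 shared 107 windows of 50 bases with each other, 10.3% and 10.0% of their exon windows, so part of their reads could be split or lost. GSTU8 shared 21 windows, 1.67%, with another place in the genome, and the other 37 members shared none. GSTF8 overlaps the gene AT2G47720 by 516 bases on the same strand, and GSTU10 overlaps OTP87 (AT1G74600) by 21. GSTU2, GSTU6, GSTU7, GSTU10, GSTF2, GSTF4, GSTF10 and GSTF11 overlap genes on the opposite strand, and the strand used in counting is not given in the sources used here. Values of these genes may therefore hold reads of the overlapping gene.

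Around the family, genes of the same pathway were read from the same fit. Of 13 other glutathione transferase genes, 12 were tested. None was called at 2 h by limma or limma-voom, with 0 at an unadjusted p under 0.05. In the difference of responses limma called 1, which was positive, and limma-voom 0, beside 1.72% of all genes called by limma. At 4 h 4 were higher at an unadjusted p under 0.05, beside 4608 of 19155 genes in either direction. Of these, limma called 1 at 4 h, a share near the 8.93% of all genes called there. The gene was DHAR2, a dehydroascorbate reductase, with 37.5 ± 1.12 RPKM in solvent and 49.2 ± 0.459 RPKM with GR244DO (log2 difference 0.38, adjusted p = 0.0112), a call that ended with averaged pairs (0.106) or without solvent 4 h replicate 1 (0.056). Of 10 genes of glutathione synthesis, reduction, transport and breakdown, 9 were tested. The 2 called at 4 h, 1 of them also at 2 h, stood beside 8.93% and 1.3% of all genes called at those times, and they encode vacuolar transporters of glutathione conjugates. ABCC2 went from 7.13 ± 0.545 RPKM in solvent to 15.1 ± 1.61 RPKM with GR244DO at 4 h (log2 difference 0.98, adjusted p = 3.94e-05), and at 2 h its difference was 0.50 (adjusted p = 0.0461). The 2 h call of ABCC2 ended under 15 of 27 alternatives, including the averaged pairs (0.189). It also ended without any library of the 2 h groups, solvent 0 h replicate 3, solvent 4 h replicate 1 or 3, or GR244DO 4 h replicate 1 or 2 (0.051 to 0.212). ABCC1 went from 11.95 ± 1.08 to 19.7 ± 2.51 RPKM at 4 h (log2 difference 0.67, adjusted p = 0.00308), and averaged pairs ended that call (0.101). GSH1 and GSH2, the genes of glutathione synthesis, were at 0.12 and 0.22 at 4 h (adjusted p = 0.35 and 0.49) and were not called at 2 h.

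Among 6 regulators tied to detoxification genes, the NAC transcription factor genes NAC102 and NAC032 were higher than solvent at 4 h, and NAC102 also at 2 h. This stood beside the 8.93% and 1.3% of all genes called at those times. NAC102 had 37.2 ± 3.37 RPKM in solvent and 60.3 ± 3.35 RPKM with GR244DO at 4 h (log2 difference 0.68, adjusted p = 3.04e-05), and at 2 h its difference was 0.38 (adjusted p = 0.0244). The 2 h call of NAC102 ended with averaged pairs (0.153) or without any solvent 2 h library or GR244DO 2 h replicate 2 or 3 (0.0617 to 0.11). NAC032 had 12.1 ± 0.539 RPKM in solvent and 21.1 ± 0.938 RPKM with GR244DO at 4 h (log2 difference 0.76, adjusted p = 4e-05). Both fell in solvent over time, from 82.2 ± 9.89 RPKM at 0 h for NAC102 and from 22.2 ± 1.24 RPKM for NAC032, with log2 differences from 2 h to 4 h of -0.53 (adjusted p = 0.000193) and -0.58 (adjusted p = 0.000272). The treated means at 4 h, 60.3 and 21.1 RPKM, were not above these 0 h means. The TGA factor genes TGA2, TGA5 and TGA6 and the GRAS gene SCL14, whose product acts with TGA factors, were not called at 2 h or 4 h. In the difference of responses 1 of the 6 regulators was called, with a positive value, by limma and by limma-voom. There limma called 1.72% of all genes.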

How the data were processed

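The authors deposited 1 table of RPKM per gene for the 15 libraries. Per the submitters' processing notes, STAR, featureCounts, DESeq and the TAIR10 build were used. The sources used here do not give versions, strand or how multi-mapped reads were treated. RPKM divides by the library total, so a gene's value also depends on all other genes. Multiplied by a recovered gene length and library total, all 347846 values above 0 were whole reads within 0.02 reads.

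Samples were grouped by their titles. Genes with at least 1 RPKM in 3 libraries were tested with limma 3.58.1 in R 4.3.3 (trend, pseudocount 1, all 5 groups in 1 fit, Benjamini-Hochberg over 19155 genes), after the script had been tested on simulated data. The recovered reads were used in a limma-voom alternative, which called 171 genes higher and 66 lower at 2 h and 973 and 785 at 4 h, against 170 and 79 and 899 and 811. The floor of 3 reads in a gene of 1 kb was 0.0801 to 0.123 RPKM and covers counting error only. Residual correlations of same-numbered GR244DO and solvent libraries were 0.179, 0.133 and 0.101 at 2 h, where the block is therefore reported, and -0.183, 0.491 and 0.407 at 4 h. Alternatives were 3 other normalizations, the variance model, 2 filters, a pseudocount of 0.1, fits of the compared groups alone, the replicate block, the read-based fit, averaged near-identical pairs and each library left out. The block within the compared groups was added after seeing the data.

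All 40 members are accounted for. Full values are given for members called with GR244DO at either time or in the difference of responses, and for up to 6 called members per direction in the solvent comparisons. Of other pathway lists, up to 4 called genes are named. The members and lists were chosen with earlier results of these data known. Gene positions and upstream windows came from RefSeq TAIR10.1, whose exon lengths equalled the recovered lengths for 17.4% of 25858 genes (median ratio 0.915).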

Additional observations from a re-analysis of the deposited data

Results flagged for a closer look

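The response to GR244DO differed between 4 h and 2 h, by the test of that difference in the limma fit, for 6 members. On the log2(RPKM + 1) scale the difference of responses was 0.79 (adjusted p = 0.0012) for GSTU11, 0.72 (adjusted p = 0.0358) for GSTU7, 0.61 (adjusted p = 0.00268) for GSTU24, 0.50 (adjusted p = 0.0254) for GSTF14 and 0.42 (adjusted p = 0.0254) for GSTF8. For GSTU17 it was -0.65 (adjusted p = 0.0112). In GSTU7 and GSTU24 the solvent mean fell from 2 h to 4 h while the treated means at the 2 times were 79.4 ± 0.857 and 83.2 ± 2.15 RPKM for GSTU7 and 111 ± 3.93 and 121 ± 1.91 RPKM for GSTU24 (SD, n = 3). The groups held 3 libraries each, so single libraries were not tested for standing apart.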

How the results depend on the processing

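No call of a member reversed under any alternative. Of the calls, 11 of 14 at 4 h, 1 of 3 at 2 h and 1 of 6 in the difference of responses held under every alternative that tested the gene. Averaging the near-identical pairs, which leaves fewer samples, gave 1 call at 2 h and 1 in the difference, beside 0.35% and 0.266% of all genes. In solvent it gave 7 calls from 0 h to 2 h (3 higher, 4 lower) and 5 from 2 h to 4 h (2 and 3), beside 17.97% and 8.94%. Fits of the compared groups alone gave 9 calls from 0 h to 2 h (3 and 6, beside 17.9% of all genes), and removing gene length trends gave 9 from 2 h to 4 h (3 and 6, beside 18.8%). Leaving out 1 library gave 3 to 4 calls at 2 h, 11 to 16 at 4 h, 3 to 7 in the difference, 10 to 16 from 0 h to 2 h in solvent and 8 (without solvent 4 h replicate 1) to 15 from 2 h to 4 h. Median-of-ratios scaling gave 5 positive and 2 negative calls in the difference, against 5 and 1. Over all genes the split of calls moved with scaling: at 2 h from 170 higher and 79 lower to 121 and 148 by quantile normalization, 100 and 103 by median-of-ratios scaling and 140 and 139 without gene length trends. In the difference it moved from 184 and 145 to 218 and 113, 188 and 100 and 276 and 119 by the same settings, and in solvent from 0 h to 2 h from 3644 and 1850 to 2563 and 2538, 2199 and 2596 and 2467 and 2779. The GSTU8, GSTU22 and GSTU25 calls at 2 h held under each of these.

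With the replicate block there were 4 calls at 2 h, 19 at 4 h (14 higher, 5 lower), 9 in the difference (6 and 3), 16 from 0 h to 2 h in solvent and 15 from 2 h to 4 h. Over all genes the block called 5.35%, 14.3%, 2.43%, 34.8% and 27.9%, so the share rose from 1.3% at 2 h and from 8.93% at 4 h. The 5 added at 4 h were GSTU2, GSTU5, GSTU6, GSTU18 and GSTF2 (adjusted p = 0.0246 to 0.0458). With the block and the compared groups alone there were 3, 20 (14 and 6), 9, 15 and 8 calls, beside 1.37%, 21.9%, 2.44%, 27.3% and 14.1% of all genes. At 4 h the residual correlations of same-numbered libraries were -0.183, 0.491 and 0.407, and in the solvent comparisons they were also of both signs. Nothing in the labels says whether a replicate number marks a shared batch. Where a call changed, the cause was not tested. The median SE of a difference over all genes tested was 0.09 at 2 h and 4 h. It was 0.14 for the low members GSTU2 and GSTU12, 0.16 for GSTU3 and 0.17 for GSTU23, which limits what could be called in these genes.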
